A study of Mus musculus with 8 samples.

Results

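The genes described here encode the enzymes and transporters of glycolysis, the subunits and regulators of the hypoxia-inducible factors (HIF), common hypoxia-induced genes, and Txnip and Arrdc4, a pair of α-arrestins. They were taken as a list of 42 gene symbols, and 38 of them had at least 1 probe set that the array annotation gives to that symbol alone. These 38 genes were measured by 89 probe sets, among 18193 genes and 34945 probe sets with a single symbol on the array. Gpi1 and Eno1 were not analysed here, and Bnip3l and Gapdh had no probe set of their own outside those shared with other symbols or kept as array controls.

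Total RNA of mouse CD4 T cells (C57BL/6 strain) was hybridised to 8 Affymetrix Mouse Genome 430 2.0 arrays, 2 for each of 4 groups: RORγt-deficient cells with digoxin, RORγt-deficient cells with DMSO, wildtype cells with digoxin and wildtype cells with DMSO. In every group naive CD4 T cells had been sorted, grown on antibodies against CD3 and CD28 and kept for 48 h under conditions that drive Th17 differentiation. RORγt is the nuclear receptor that directs this differentiation, and digoxin, a plant-derived cardiac glycoside, blocks the sodium pump. The sources used here give neither the dose of digoxin nor the allele of the deficient cells. The array titles name biological replicates but not separate animals or cultures, so a p-value measures only how far these arrays spread, which may be technical in part.

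Glycolysis turns glucose into pyruvate and, through lactate dehydrogenase, into lactate, and activated T cells rely on it heavily while they divide. HIF-1, made of HIF-1α and ARNT, raises transcription of most glycolytic genes when oxygen is low, and prolyl hydroxylases and the VHL ubiquitin ligase keep HIF-1α low when oxygen is present. Txnip and Arrdc4 act against glucose uptake, and their transcription is driven by the glucose-sensing pair MondoA and Mlx. In mouse T cells HIF-1α is known to favour Th17 over regulatory T cell differentiation.

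Each value below is a log2 expression value relative to the average of both wildtype DMSO arrays, which makes wildtype DMSO average 0 for every gene and no absolute level is printed. A range for the level before this centring could be read from the precision of the deposited numbers. By that reading 30 of the 38 genes (78.9%) lay at a log2 level of 8 or above on all arrays, against 20.9% of all genes. The range is that of a gene's lowest array, so a gene placed below 8 can exceed 8 on other arrays. The other 8 (Pfkl, Pfkfb3, Aldoc, Epas1, Arnt, Hif1an, Vhl and Arrdc4) were placed between 4 and 8. None was placed in the dimmest range, between 2 and 4, which held 31.1% of all genes. All 6 measured T cell markers were at 8 or above, so none of these defining markers was near the bottom of the range. The 5 B cell, 7 myeloid and 3 NK cell markers were all below 8 on their lowest array, with 3, 2 and 2 of them between 2 and 4, as were the 2 erythroid markers. The 2 CD8 T cell markers lay between 4 and 8 on their lowest array. Probe sets differ in how strongly they bind, so these ranges do not rank one gene's level against another's. RORγt's own transcript was not analysed here, which leaves the genotype labels without a check at that gene. Il17a, the signature cytokine of Th17 cells, stood at -3.87 and -4.12 in RORγt-deficient digoxin, -2.01 and -2.21 in RORγt-deficient DMSO, -2.35 and -2.44 in wildtype digoxin and -0.02 and 0.02 in wildtype DMSO arrays. It fell, with a difference of -2.11 for RORγt deficiency in DMSO (limma adjusted p = 0.00011) and -2.39 for digoxin in wildtype cells (limma adjusted p = 6.5e-05).

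Most differences of the glycolysis and hypoxia genes were small, as were those of most genes on the array. For RORγt deficiency in DMSO the median size of a difference was 0.085 over the 38 genes and 0.112 over all genes. In RORγt-deficient against wildtype cells in DMSO, Txnip was the 1 gene of the 38 that passed the test (limma, Benjamini-Hochberg adjusted p under 0.05 over all 18193 genes, two-sided), and it rose. On the whole array 1.05% of genes passed in that comparison, and 0.28% passed as higher. Averaged over both treatments, Txnip again was the single gene of the 38 called, and 1.51% of all genes were. The test called 0 of the 38 for digoxin in wildtype cells (0.121% of all genes called), for digoxin in RORγt-deficient cells (0.0055%), for RORγt deficiency under digoxin (0.0055%), for the difference between the digoxin effects (0%) and for digoxin averaged over both genotypes (0.104%). At an unadjusted limma p under 0.05 the counts were 5 of 38 for RORγt deficiency in DMSO, 7 over both treatments, 2 for digoxin in wildtype cells, 0 for digoxin in deficient cells, and 1 in each of the other 3 comparisons. The shares of all genes at that unadjusted threshold were 10.3%, 11.9%, 6.99% and 3.51%. For the other 3 in the order above they were 5.51%, 3.09% and 7.49%. At such shares, 0 or 1 called of 38 is not a result about these genes as a list.

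**Figure D1:**
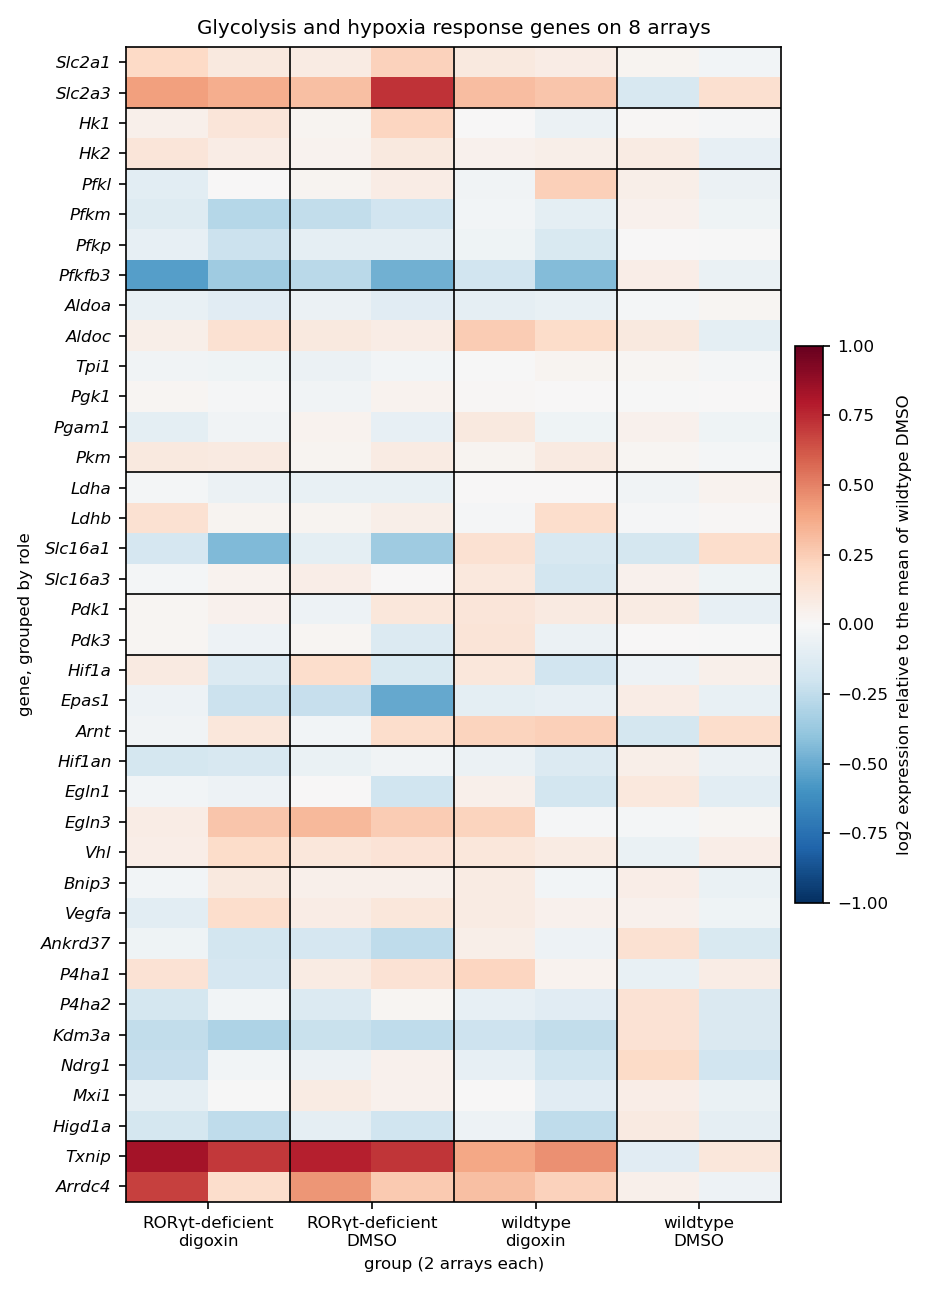
Log2 expression of the 38 glycolysis and hypoxia response genes on each of the 8 arrays, relative to the mean of wildtype DMSO. Rows are genes grouped by role, and columns run from RORγt-deficient digoxin through RORγt-deficient DMSO and wildtype digoxin to wildtype DMSO, 2 arrays each. Txnip near the bottom is the row with the strongest colour, at 0.71 to 0.83 on the 4 RORγt-deficient arrays.

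Txnip (thioredoxin-interacting protein) takes glucose transporters from the cell surface and binds thioredoxin. On its first probe set it stood at 0.83 and 0.71 in RORγt-deficient digoxin arrays, 0.78 and 0.72 in RORγt-deficient DMSO arrays, 0.38 and 0.46 in wildtype digoxin arrays and -0.11 and 0.11 in wildtype DMSO arrays. All 4 RORγt-deficient arrays were above all 4 wildtype arrays, and both wildtype digoxin arrays were above both wildtype DMSO arrays. RORγt deficiency in DMSO raised Txnip by 0.75 ± 0.11 (limma SE, n = 2 arrays a group; adjusted p = 0.0153), a 1.68-fold difference with a 95% interval of 0.49 to 1.00 on the log2 scale. Over both treatments the rise was 0.55 ± 0.08, or 1.46-fold (adjusted p = 0.00899, limma). This call was lost without RORγt-deficient digoxin replicate 1 (0.52) and after a further quantile normalisation (0.43, limma adjusted p = 0.53). That normalisation gives the centred wildtype DMSO arrays the same spread as the others by construction. In DMSO it cut the calls over all genes from 191 to 3. A loss after it, here or below, therefore does not decide whether the call of a gene or list holds.

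The second Txnip probe set gave 1.08 and 0.85 in RORγt-deficient digoxin, 0.82 and 1.01 in RORγt-deficient DMSO, 0.60 and 0.61 in wildtype digoxin and -0.29 and 0.29 in wildtype DMSO arrays. Here too every RORγt-deficient array was above every wildtype array. When all probe sets were tested separately, its difference of 0.92 in DMSO missed the threshold (adjusted p = 0.0518, limma), and its difference of 0.64 over both treatments passed it (adjusted p = 0.0436, limma), though in only 1 of the 8 fits that left out 1 array each, the one without wildtype DMSO replicate 2. The DMSO call of the first probe set rested on every array of that comparison. It was lost without RORγt-deficient DMSO replicate 1 (adjusted p = 0.0983) or 2 (0.104) and without wildtype DMSO replicate 1 (0.153) or 2 (0.0856), while the limma difference stayed between 0.64 and 0.86. It was also lost when only the 2 groups compared were fitted (0.75, limma adjusted p = 0.0583) and after a further quantile normalisation (0.63, limma adjusted p = 0.52).

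Digoxin in wildtype cells gave a Txnip difference of 0.42 ± 0.11 (limma SE, adjusted p = 0.416), with a 95% interval of 0.16 to 0.67, and the 2 groups did not overlap. In RORγt-deficient cells the digoxin difference was 0.02, with an interval of -0.23 to 0.28. The difference between these digoxin effects was -0.40, with an interval of -0.76 to -0.04, and was not called (adjusted p = 1, limma; unadjusted p = 0.0341). RORγt deficiency under digoxin gave 0.35 ± 0.11 (limma SE, adjusted p = 0.715). These comparisons share arrays with one another, so their values are not independent of each other.

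Arrdc4, an α-arrestin that glucose induces as it does Txnip, stood on its first probe set at 0.68 and 0.17 in RORγt-deficient digoxin, 0.44 and 0.26 in RORγt-deficient DMSO, 0.30 and 0.23 in wildtype digoxin and 0.05 and -0.05 in wildtype DMSO arrays. All 6 arrays outside wildtype DMSO were above both arrays of that group, and the RORγt-deficient digoxin arrays differed widely from each other. Its difference for RORγt deficiency in DMSO was 0.35 ± 0.16 (limma SE, adjusted p = 0.488), with a 95% interval from -0.002 to 0.71. For digoxin in wildtype cells it was 0.27 (interval -0.09 to 0.62, limma adjusted p = 0.778).

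The second Arrdc4 probe set, described here after its values were seen, stood higher. It gave 1.13 and 0.88 in RORγt-deficient digoxin, 0.76 and 0.79 in RORγt-deficient DMSO, 0.65 and 0.36 in wildtype digoxin and -0.07 and 0.07 in wildtype DMSO arrays. As for Txnip, every RORγt-deficient array was above every wildtype array, and every wildtype digoxin array was above both wildtype DMSO arrays. In the fit over all 34945 probe sets, where 0.79% passed for RORγt deficiency in DMSO and 1.23% over both treatments, it passed in both, with 0.77 (adjusted p = 0.0337, limma) and 0.64 (adjusted p = 0.0129, limma). In all, 2 of the 89 probe sets passed in DMSO and 3 over both treatments, all of them higher and all of Txnip or Arrdc4. The Arrdc4 call held in 2 of 8 fits that left out 1 array each in DMSO, where only the wildtype digoxin arrays could be spared, and in 5 of 8 over both treatments. With all probe sets of a gene averaged, Arrdc4 over both treatments was 0.45 and was called (adjusted p = 0.0356, limma), in a fit that called 2.07% of all genes. Digoxin in wildtype cells gave 0.51 on this probe set and was not called (adjusted p = 0.444, limma).

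**Figure D2:**
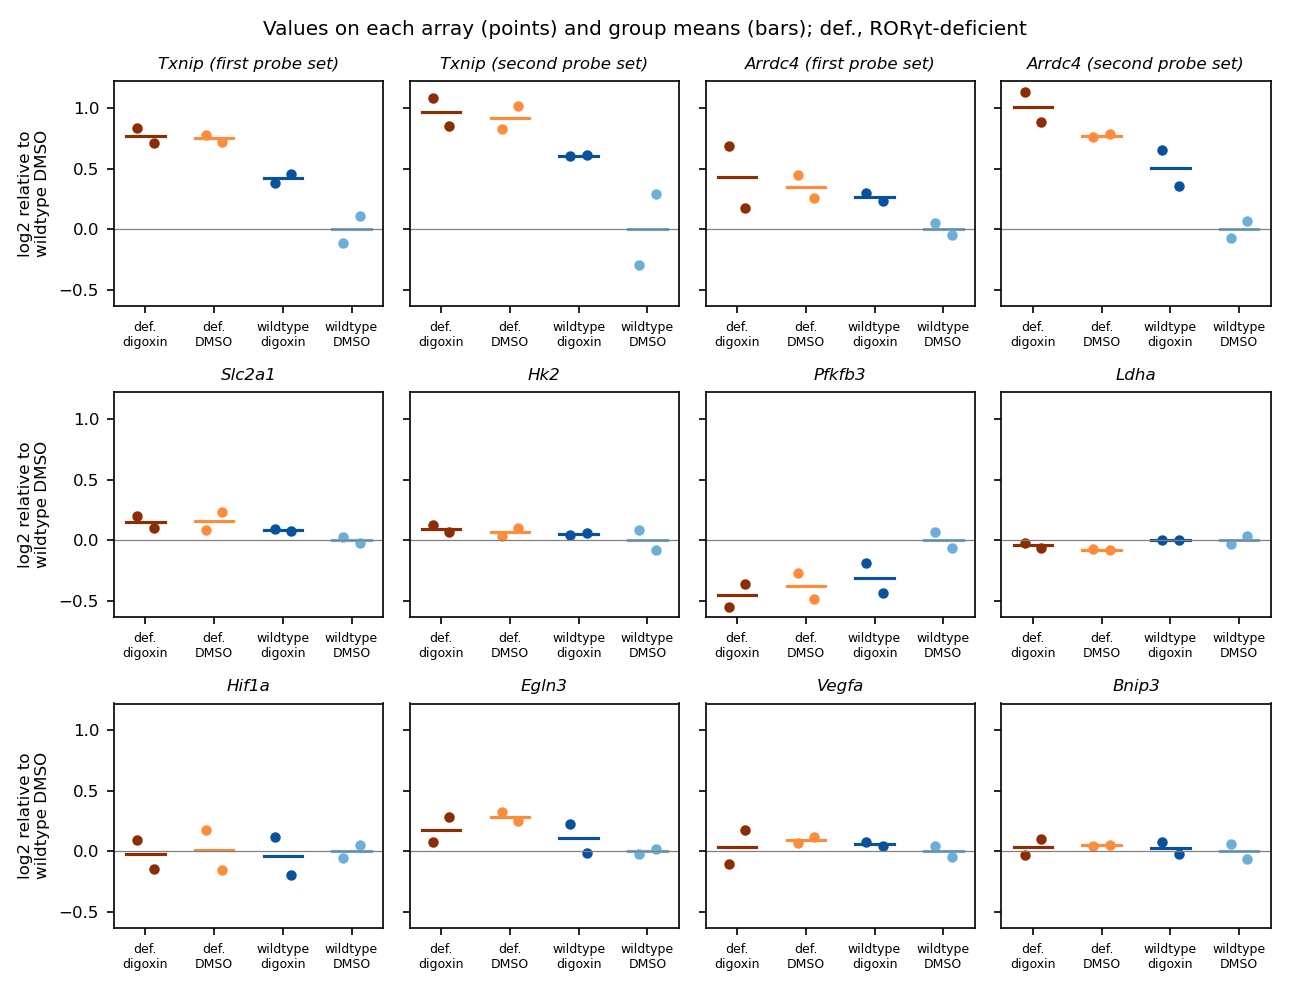
Log2 expression on each array (points) and the group means (bars), relative to the mean of wildtype DMSO, for both probe sets of Txnip and Arrdc4 and for 8 further glycolysis and hypoxia genes. Groups run from RORγt-deficient (def.) digoxin on the left to wildtype DMSO on the right. Both probe sets of Txnip and the second of Arrdc4 have every RORγt-deficient array above every wildtype array, while Ldha, Hk2 and Bnip3 stay between -0.08 and 0.12.

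The promoters of these α-arrestins are shown because both genes stood higher in the same arrays. MondoA and Mlx bind a carbohydrate response element, a pair of E-box-like CACGNG motifs set 5 bases apart, and the factor NF-Y binds CCAAT. The RefSeq promoter windows (GRCm38.p6, 250 bases before to 50 after the transcription start) are printed in the direction of transcription, with CACGNG and CCAAT in capitals on either strand (CCAAT reads ATTGG on the opposite one). Txnip lies at chr3:96557707-96558006 on the plus strand and Arrdc4 at chr7:68749189-68749488 on the minus strand.
Txnip: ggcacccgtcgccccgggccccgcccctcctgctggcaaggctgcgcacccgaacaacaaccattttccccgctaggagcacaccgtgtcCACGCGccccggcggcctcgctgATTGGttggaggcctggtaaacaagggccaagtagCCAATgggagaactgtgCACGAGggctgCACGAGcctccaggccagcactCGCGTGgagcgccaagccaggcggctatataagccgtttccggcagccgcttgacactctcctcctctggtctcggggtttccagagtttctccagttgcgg
Arrdc4: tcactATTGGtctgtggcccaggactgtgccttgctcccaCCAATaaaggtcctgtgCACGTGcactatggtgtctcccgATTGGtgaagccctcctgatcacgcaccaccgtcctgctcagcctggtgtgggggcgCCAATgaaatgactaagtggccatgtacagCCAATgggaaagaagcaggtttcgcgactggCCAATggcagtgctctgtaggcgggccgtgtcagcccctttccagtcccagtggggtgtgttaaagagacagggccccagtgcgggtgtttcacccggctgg

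The Txnip window holds 4 CACGNG motifs, of which 2 CACGAG copies stand 5 bases apart, at positions -85 and -74 relative to the start, and 2 CCAAT motifs. The paired form, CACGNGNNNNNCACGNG on either strand, was found in the window of 1 of the 35 genes of the list that have one, and in 16 of all 32851 promoter windows (0.0487%). The Arrdc4 window holds 1 CACGTG motif, a form of CACGNG, and 6 CCAAT motifs. The 35 genes have 51 windows in all. CACGNG was found in 26 of the 51 windows against 27.5% of all windows, CACGTG in 7 against 7.15%, and CCAAT in 19 against 37.4%. Counted by gene, with a match in any window, these were 21, 7 and 17 of the 35 genes, against 30.3%, 8.09% and 41.1% of all genes. A match is a description of the letters only.

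The glucose-sensing factors themselves, with the other measured α-arrestins, formed a list of 9 genes in which limma called 0 for RORγt deficiency in DMSO and 0 for digoxin in wildtype cells (2 and 1 at an unadjusted p under 0.05). Of all genes, 1.05% and 0.121% were called, and 10.3% and 6.99% passed unadjusted. At such shares, 0 called of 9 is not a result about this list. Mlxip, which encodes MondoA, differed by -0.15 for RORγt deficiency in DMSO and -0.02 for digoxin in wildtype cells (limma). Mlx differed by -0.12 and -0.01. Mlxipl, which encodes the related factor ChREBP, differed by 0.18 and 0.16 in these comparisons and by 0.25 for RORγt deficiency over both treatments (limma adjusted p = 0.283, unadjusted 0.0186). Under digoxin its difference for RORγt deficiency was 0.31 (limma adjusted p = 0.88, unadjusted 0.0309). Arrdc1, Arrdc2 and Arrdc3 lay between -0.16 and 0.07 for RORγt deficiency in DMSO and between -0.14 and 0.16 for digoxin in wildtype cells. The list also holds Myc, Mycn and Max, and Max, the partner of Myc, was its highest gene for RORγt deficiency in DMSO at 0.46, while Myc differed by 0.27 there (limma adjusted p = 0.436, unadjusted 0.0369) and by 0.27 for digoxin in wildtype cells. Mlxipl, Myc and Max were named after their values were seen.

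Dividing T cells express more glycolytic genes, so the proliferation list was set beside these results. In DMSO, 9 of its 14 measured genes fell in RORγt-deficient cells (limma, adjusted p under 0.05), with a median of -0.81 over the list. Over all 18193 genes 1.05% were called there, 140 genes as lower, and 10.3% had an unadjusted limma p under 0.05. For RORγt deficiency under digoxin 0 of the 14 were called (limma; 10 at an unadjusted p under 0.05), with a median of -0.55. Of all genes, 0.0055% were called in that comparison and 5.51% passed unadjusted. Top2a, placed between 2 and 4, went the other way, with 0.11 in DMSO and 0.35 under digoxin. Mki67, the proliferation marker, stood at -1.13 and -1.09 in RORγt-deficient digoxin, -1.001 and -1.22 in RORγt-deficient DMSO, -0.27 and -0.59 in wildtype digoxin and -0.09 and 0.09 in wildtype DMSO arrays. The median of the list was between -0.82 and -0.71 on the 4 RORγt-deficient arrays, against -0.295 to 0.095 on the 4 wildtype arrays. The count of 9 became 0 without wildtype DMSO replicate 2, 6 without wildtype DMSO replicate 1, 2 or 3 without either RORγt-deficient DMSO array, and 0 after quantile normalisation. The median of the 6 T cell markers was between 0.21 and 0.25 on RORγt-deficient arrays, against -0.04 to 0.14 on wildtype arrays, and the test called 0 of the 6 (limma; 3 at an unadjusted p under 0.05). The median of the 2 CD8 T cell markers was between 0.072 and 0.242 on RORγt-deficient arrays, against -0.026 to 0.067 on wildtype arrays, which all but touch (limma, 0 called, 0 at an unadjusted p under 0.05 in DMSO). The proliferation and T cell lists separated the genotypes on the same arrays as Txnip, and the part of these 3 lists in its rise was not tested. In these bulk samples fewer cells of a kind and less RNA per cell cannot be told apart.

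**Figure D3:**
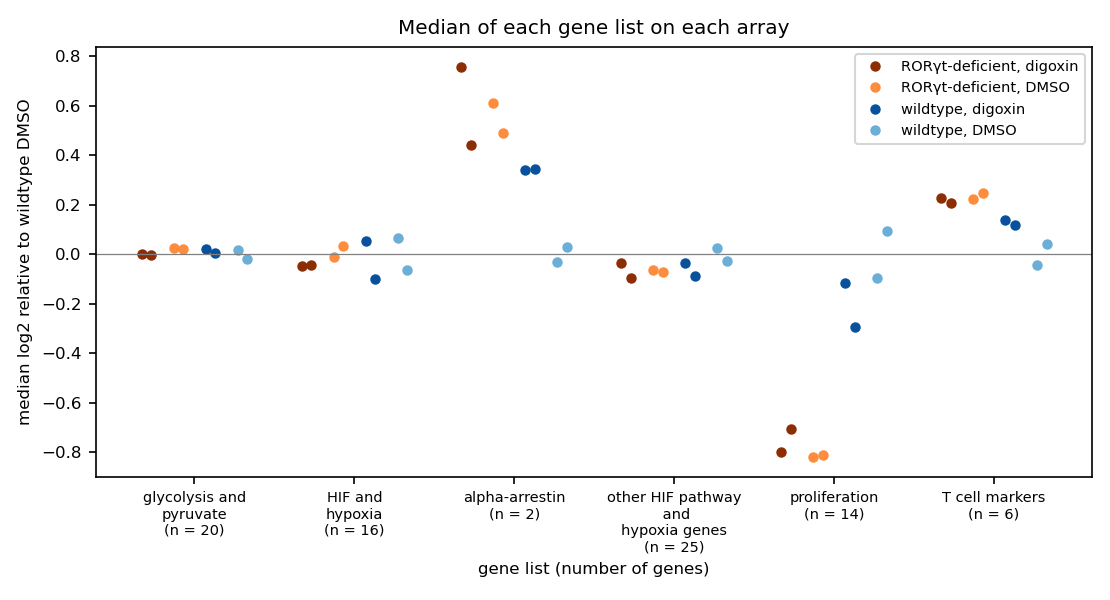
Median log2 expression of each gene list on each array, relative to the mean of wildtype DMSO, with 2 points a group and the groups in the order of the legend. The medians of the 20 glycolysis genes and of the 16 HIF and hypoxia genes stay between -0.10 and 0.06 on all 8 arrays. The median of the 14 proliferation genes lies between -0.82 and -0.71 on the RORγt-deficient arrays. Single genes of these lists lie outside these ranges.

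Glucose enters T cells mainly through GLUT1 and GLUT3. Slc2a1, which encodes GLUT1, stood at 0.20 and 0.10 in RORγt-deficient digoxin, 0.09 and 0.23 in RORγt-deficient DMSO, 0.09 and 0.08 in wildtype digoxin and 0.02 and -0.02 in wildtype DMSO arrays. Wildtype DMSO was the lowest group, but no difference of Slc2a1 exceeded 0.16 (limma adjusted p = 0.674 for RORγt deficiency in DMSO, interval -0.08 to 0.39). Slc2a3, which encodes GLUT3, stood at 0.41 and 0.37 in RORγt-deficient digoxin, 0.30 and 0.72 in RORγt-deficient DMSO, 0.31 and 0.28 in wildtype digoxin and -0.16 and 0.16 in wildtype DMSO arrays. Its 2 RORγt-deficient DMSO arrays differed by more than those of any other group, and both lay above wildtype DMSO. The difference of 0.51 ± 0.15 (limma SE) for RORγt deficiency in DMSO was not called (adjusted p = 0.222), nor was the 0.29 ± 0.15 for digoxin in wildtype cells (adjusted p = 0.758). The 4 Slc2a3 probe sets disagreed: for RORγt deficiency in DMSO one other gave 0.56, and the remaining ones gave 0.02 and 0.08 (limma).

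Hexokinase traps glucose in the cell. Hk2, the isoform induced on T cell activation, stood at 0.12 and 0.07 in RORγt-deficient digoxin, 0.04 and 0.10 in RORγt-deficient DMSO, 0.04 and 0.06 in wildtype digoxin and 0.08 and -0.08 in wildtype DMSO arrays. Its groups overlapped in DMSO, and the difference for RORγt deficiency there was 0.07 (limma interval -0.17 to 0.30). Hk1, the constitutive isoform, stood at 0.05 and 0.12 in RORγt-deficient digoxin, 0.03 and 0.22 in RORγt-deficient DMSO, 0.01 and -0.06 in wildtype digoxin and 0.01 and -0.01 in wildtype DMSO arrays. Its difference of 0.11 under digoxin, among the non-overlapping ones, was not called (limma adjusted p = 0.985).

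The next step, phosphofructokinase, commits the sugar to glycolysis, and Pfkfb3 makes the sugar phosphate that activates it most strongly. Pfkfb3 stood at -0.55 and -0.36 in RORγt-deficient digoxin, -0.27 and -0.48 in RORγt-deficient DMSO, -0.19 and -0.44 in wildtype digoxin and 0.07 and -0.07 in wildtype DMSO arrays. All 6 arrays outside wildtype DMSO were below both arrays of that group. The differences of -0.38 ± 0.13 for RORγt deficiency in DMSO (adjusted p = 0.332) and -0.31 ± 0.13 for digoxin in wildtype cells (adjusted p = 0.695) were not called (limma SE). The second Pfkfb3 probe set gave 0.11 and 0.04 in the same comparisons.

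Of the phosphofructokinase subunits, Pfkm stood at -0.13 and -0.28 in RORγt-deficient digoxin, -0.25 and -0.19 in RORγt-deficient DMSO, -0.02 and -0.10 in wildtype digoxin and 0.04 and -0.04 in wildtype DMSO arrays. Every RORγt-deficient array was below every wildtype array, and the difference over both treatments of -0.18 was not called (limma adjusted p = 0.366). Pfkl and Pfkp differed by 0.05 and -0.09 for RORγt deficiency in DMSO, and by 0.10 and -0.10 for digoxin in wildtype cells. Pfkp was the 1 gene of the 27 with several probe sets whose probe sets lay more than 1.5-fold apart in a pairwise comparison. For digoxin in wildtype cells they gave -0.10, -0.51 and 0.11, and the lowest was not called (limma adjusted p = 0.269).

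The enzymes from aldolase to pyruvate kinase lay close to the wildtype DMSO level on every array. Pgk1 (phosphoglycerate kinase) stood between -0.03 and 0.04 on all 8 arrays, Tpi1 (triosephosphate isomerase) between -0.06 and 0.03, and Aldoa (the aldolase of muscle and most other tissues) between -0.11 and 0.02. Pgam1 (phosphoglycerate mutase) ranged from -0.10 to 0.10, and Pkm (pyruvate kinase) from -0.02 to 0.10. Aldoc, a dimmer aldolase, ranged from -0.10 to 0.25. For RORγt deficiency in DMSO the 6 measured genes of this stretch lay between -0.08 (Aldoa) and 0.09 (Aldoc), and for digoxin in wildtype cells between -0.08 (Aldoa) and 0.22 (Aldoc), with none called (limma). The non-overlap of Pkm for digoxin in deficient cells amounted to 0.04.

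Ldha, the subunit of lactate dehydrogenase that favours lactate production, stood at -0.02 and -0.06 in RORγt-deficient digoxin, -0.07 and -0.08 in RORγt-deficient DMSO, 0.01 and 0.00 in wildtype digoxin and -0.03 and 0.03 in wildtype DMSO arrays. Both RORγt-deficient DMSO arrays were below both wildtype DMSO arrays, with a difference of -0.07 (limma interval -0.29 to 0.14), and digoxin in wildtype cells gave a difference of 0.00 (interval -0.22 to 0.22). Its sister Ldhb differed by 0.04 and 0.08. Slc16a1, which encodes the monocarboxylate carrier MCT1, stood at -0.17 and -0.44 in RORγt-deficient digoxin, -0.10 and -0.36 in RORγt-deficient DMSO, 0.15 and -0.16 in wildtype digoxin and -0.18 and 0.18 in wildtype DMSO arrays. Under digoxin both RORγt-deficient arrays were below both wildtype ones, and the difference of -0.30 ± 0.17 (limma SE) was not called (adjusted p = 0.963). Slc16a3, which encodes the lactate exporter MCT4, differed by no more than 0.04 in the 4 pairwise comparisons. Pdk1 and Pdk3, kinases that close pyruvate dehydrogenase, lay between -0.14 and 0.13 on all arrays.

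Hif1a stood at 0.09 and -0.14 in RORγt-deficient digoxin, 0.17 and -0.15 in RORγt-deficient DMSO, 0.12 and -0.20 in wildtype digoxin and -0.05 and 0.05 in wildtype DMSO arrays. All groups overlapped. The centring places the wildtype DMSO arrays on either side of 0, and in each other group replicate 1 was above 0 and replicate 2 below it. The difference for RORγt deficiency in DMSO was 0.01 (limma interval -0.33 to 0.35). The other 3 Hif1a probe sets gave 0.41, 0.05 and 0.32 in that comparison, and 0 of them were called (lowest limma adjusted p = 0.551; 0 at an unadjusted p under 0.05). Epas1, which encodes HIF-2α, stood at -0.05 and -0.21 in RORγt-deficient digoxin, -0.23 and -0.51 in RORγt-deficient DMSO, -0.10 and -0.08 in wildtype digoxin and 0.08 and -0.08 in wildtype DMSO arrays. Its RORγt-deficient DMSO arrays were the lowest, but neither the -0.37 ± 0.13 for RORγt deficiency in DMSO (adjusted p = 0.306) nor the 0.24 ± 0.13 for digoxin in deficient cells (adjusted p = 1) was called (limma SE). Arnt stood at -0.03 and 0.11 in RORγt-deficient digoxin, -0.03 and 0.18 in RORγt-deficient DMSO, 0.22 and 0.24 in wildtype digoxin and -0.18 and 0.18 in wildtype DMSO arrays. The wildtype digoxin arrays were the highest, and the difference of -0.19 for RORγt deficiency under digoxin was not called (limma adjusted p = 0.973). These Arnt values come from 1 of its 5 probe sets, and those of Epas1 from 1 of 2.

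Among the regulators of HIF, Egln3 (the prolyl hydroxylase that HIF itself induces) stood at 0.08 and 0.28 in RORγt-deficient digoxin, 0.32 and 0.25 in RORγt-deficient DMSO, 0.22 and -0.01 in wildtype digoxin and -0.02 and 0.02 in wildtype DMSO arrays. In DMSO both RORγt-deficient arrays were above both wildtype ones, and the difference of 0.29 ± 0.12 (limma SE) was not called (adjusted p = 0.448). Egln1, the main oxygen-sensing hydroxylase, and Vhl differed by -0.10 and 0.12 in that comparison. Hif1an, the asparaginyl hydroxylase that blocks HIF activity, stood at -0.18 and -0.16 in RORγt-deficient digoxin, -0.07 and -0.04 in RORγt-deficient DMSO, -0.06 and -0.14 in wildtype digoxin and 0.06 and -0.06 in wildtype DMSO arrays. It was lowest in RORγt-deficient digoxin, with a digoxin difference of -0.12 in deficient cells (limma interval -0.35 to 0.11).

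The 9 measured hypoxia response genes lay between -0.24 (Kdm3a) and 0.12 (P4ha1) for RORγt deficiency in DMSO, and between -0.23 (Kdm3a) and 0.13 (P4ha1) for digoxin in wildtype cells. Kdm3a, a histone demethylase induced by HIF, stood at -0.24 and -0.31 in RORγt-deficient digoxin, -0.22 and -0.26 in RORγt-deficient DMSO, -0.21 and -0.24 in wildtype digoxin and 0.14 and -0.14 in wildtype DMSO arrays. All 6 arrays outside wildtype DMSO were lower than both of that group, whose own arrays differed by more than the other groups' did, and the limma differences were not called (adjusted p = 0.53 and 0.758). Vegfa, the angiogenic growth factor, stood at -0.10 and 0.17 in RORγt-deficient digoxin, 0.07 and 0.12 in RORγt-deficient DMSO, 0.08 and 0.04 in wildtype digoxin and 0.04 and -0.04 in wildtype DMSO arrays. Bnip3, a mitophagy receptor induced by HIF, stood at -0.03 and 0.10 in RORγt-deficient digoxin, 0.05 and 0.05 in RORγt-deficient DMSO, 0.08 and -0.02 in wildtype digoxin and 0.06 and -0.06 in wildtype DMSO arrays. The groups of both genes overlapped for digoxin in either genotype, and the limma intervals for RORγt deficiency in DMSO were -0.17 to 0.36 for Vegfa and -0.19 to 0.29 for Bnip3. Mxi1, a partner of Max that opposes Myc, stood at -0.09 and -0.01 in RORγt-deficient digoxin, 0.08 and 0.04 in RORγt-deficient DMSO, 0.00 and -0.12 in wildtype digoxin and 0.07 and -0.07 in wildtype DMSO arrays. Its digoxin difference in deficient cells, -0.11, was among the non-overlapping ones and was not called (limma adjusted p = 1). Ankrd37, P4ha1 and P4ha2 (collagen prolyl hydroxylase subunits), Ndrg1 and Higd1a (a mitochondrial protein) ranged from -0.26 to 0.21 on the 8 arrays.

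Ldha carries HIF response elements in its promoter and is shown as the glycolytic counterpart of the α-arrestins. The core motif of HIF, ACGTG or GCGTG, was searched on both strands (reading CACGT or CACGC on the opposite one), and it overlaps CACGTG. The first of the 2 RefSeq windows of Ldha (GRCm38.p6) lies at chr7:46845554-46845853 on the plus strand, with these motifs in capitals.
Ldha: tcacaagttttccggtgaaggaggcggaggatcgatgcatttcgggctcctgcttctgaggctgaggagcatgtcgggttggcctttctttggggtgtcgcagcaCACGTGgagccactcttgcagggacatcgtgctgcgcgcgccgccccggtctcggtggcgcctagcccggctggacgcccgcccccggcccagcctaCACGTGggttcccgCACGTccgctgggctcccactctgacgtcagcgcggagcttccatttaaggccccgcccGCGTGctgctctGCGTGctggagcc
The core motif was present in 39 of the 51 windows against 43.8% of all windows, and in a window of 32 of the 35 genes, Txnip and Arrdc4 among them, against 46.7% of all genes. The letters AGGTCA, the half-site that nuclear receptors such as RORγt bind, were in 9 of the 51 windows against 16.3% of all windows, and in a window of 8 of the 35 genes against 18.1% of all genes. The Txnip and Arrdc4 windows do not hold these letters.

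The intervals show how small a difference these arrays could bound. For RORγt deficiency in DMSO the 95% interval lay within 1.5-fold in either direction (0.58 on the log2 scale) for 32 of the 38 genes, as it did for 85.7% of all genes. The 6 whose interval reached further were Txnip, Arrdc4, Slc2a3, Pfkfb3, Epas1 and Slc16a1. For digoxin in wildtype cells 34 of 38 were within it (88.2% of all genes), the others being Txnip, Arrdc4, Slc2a3 and Pfkfb3. All 38 were within it for digoxin in RORγt-deficient cells (92.5% of all genes) and 36 for RORγt deficiency under digoxin (90.4%), the exceptions there being Txnip and Slc16a1. For the difference between the digoxin effects 29 were within it, against 63% of all genes.

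**Figure D4:**
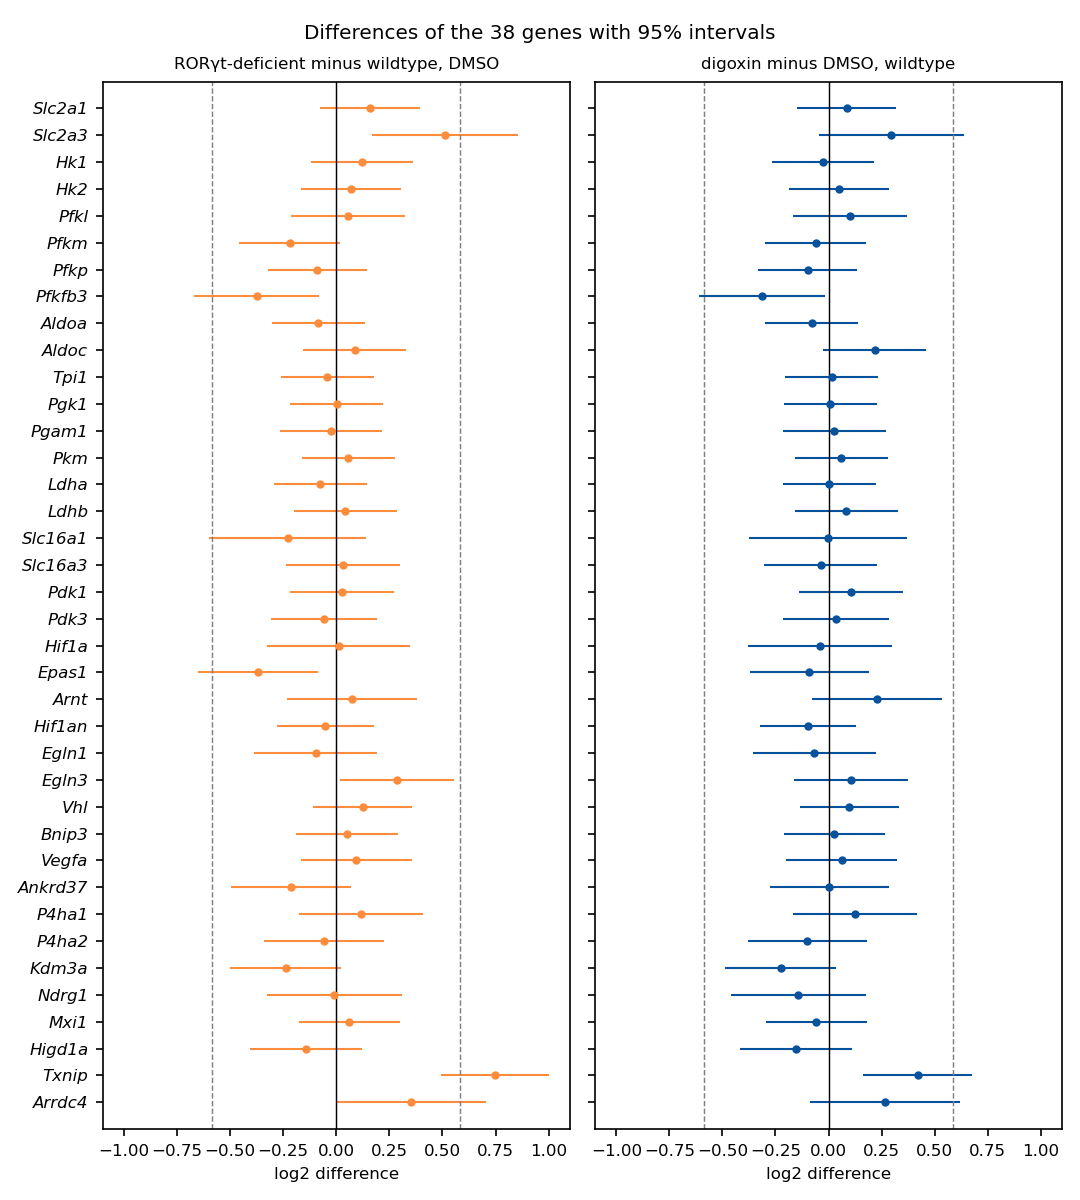
Log2 differences of the 38 genes (points) with 95% limma intervals (bars), for RORγt-deficient minus wildtype cells in DMSO on the left and digoxin minus DMSO in wildtype cells on the right. Dashed lines mark 1.5-fold in either direction (0.58 on the log2 scale). The intervals of 32 genes on the left and 34 on the right lie between the dashed lines, and Txnip has the highest point in both panels.

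The sizes of the differences, direction aside, were set beside those of all genes. For RORγt deficiency in DMSO the median size was 0.085 over the 38 genes and 0.112 over all genes, and among genes at a level of 8 or above it was 0.080 over the 30 and 0.113 over all 3807. For digoxin in wildtype cells the median size was 0.085 against 0.101. The signed median over the 38 was 0.02 for RORγt deficiency in DMSO (all genes 0.005) and 0.011 for digoxin in wildtype cells (all genes 0.012). In the other 5 comparisons the median over the 38 lay between -0.022 and 0.000.

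**Figure D5:**
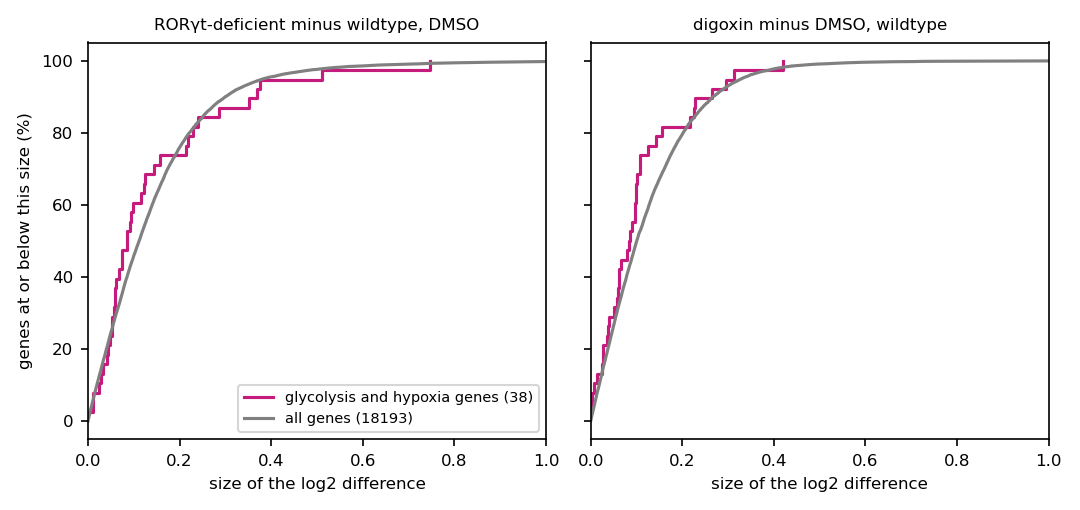
Percentage of genes (vertical axis) whose log2 difference is at or below the size on the horizontal axis, for the 38 glycolysis and hypoxia genes and for all 18193 genes, with RORγt deficiency in DMSO on the left and digoxin in wildtype cells on the right. The horizontal axis ends at 1. The median size of the 38 genes is 0.085 in both panels, against 0.112 on the left and 0.101 on the right for all genes.

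Where the 2 arrays of a group lay wholly to one side of the other group's 2, the counts were near those of all genes or below them, except in DMSO. For RORγt deficiency in DMSO 21 of the 38 genes (55.3%) did not overlap, 11 higher and 10 lower, against 41.8% of all genes. For digoxin in wildtype cells 14 did not overlap (36.8%, against 37.7% of all genes), for digoxin in RORγt-deficient cells 6 (15.8%, against 28.4%), and for RORγt deficiency under digoxin 13 (34.2%, against 31%). Of the 21 genes in DMSO, both glucose transporters, Hk1, the HIF regulators Egln3 and Vhl and both α-arrestins were higher, while Pfkm, Pfkp, Pfkfb3 and Epas1 were lower. The steps from aldolase to pyruvate kinase, the lactate genes and the hypoxia response genes held both directions. Pkm, Ldhb, P4ha1 and Vegfa were higher, and Aldoa, Tpi1, Ldha, Kdm3a, Ankrd37 and Higd1a lower. Of these 21 genes only Txnip was called, and some differences were small, such as -0.04 for Tpi1 and 0.04 for Ldhb. Each direction is that of 1 probe set a gene, and the second Pfkfb3 probe set went the other way, as given above.

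Wider lists of the same pathways held few called genes, as did the whole array. In DMSO the test called 0 of 16 other glycolytic isozymes and glucose transporters, 0 of 13 genes of glycolytic switches and pyruvate entry, 0 of 13 of glycogen and the pentose phosphate path, and 0 of 25 other HIF pathway and hypoxia genes for RORγt deficiency (limma; 0, 0, 1 and 3 at an unadjusted p under 0.05). Digoxin in wildtype cells gave 0 called in the same 4 lists (0, 0, 0 and 2 unadjusted). Of all genes, 1.05% and 0.121% were called in these comparisons, and 10.3% and 6.99% passed unadjusted. At such shares, 0 called in lists of this size is not a result about these pathways. The medians of the 4 lists lay between -0.12 and 0.02 for RORγt deficiency in DMSO, and between -0.05 and 0.02 for digoxin in wildtype cells. Over the 7 comparisons the 1 gene called in these 4 lists was Ppp1r3c. It was called for digoxin over both genotypes, where 0.104% of all genes were. Ppp1r3c encodes a glycogen-targeting subunit of a protein phosphatase and is a HIF target. It stood at 0.33 and 0.52 in RORγt-deficient digoxin, -0.18 and -0.15 in RORγt-deficient DMSO, 0.47 and 0.51 in wildtype digoxin and 0.05 and -0.05 in wildtype DMSO arrays, so that digoxin arrays were above DMSO arrays in both genotypes. Over both genotypes digoxin raised Ppp1r3c by 0.54 ± 0.08, or 1.45-fold (limma SE, adjusted p = 0.0424), and the call was lost without any 1 of the 8 arrays (0.49 to 0.59, adjusted p between 0.122 and 0.277), with arrays centred on their medians (0.0522), with all probe sets averaged (0.0615) and after quantile normalisation (0.465).

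Gapdh, the glycolytic enzyme used as a quality control on these arrays, was read only by its 3 control probe sets. They lay between -0.04 and 0.08 on all 8 arrays. The 3′ minus 5′ difference, which the centring sets to an average of 0 in wildtype DMSO, lay between -0.07 and -0.01 on the other 6 arrays for Gapdh and between -0.10 and -0.03 for Actb, which encodes β-actin. On the wildtype DMSO arrays it was 0.03 and -0.03 for Gapdh and 0.05 and -0.05 for Actb, and the part of this shift in the results was not tested.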

How the data were processed

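Expression was measured on 8 one-colour arrays, grouped by their titles. Per the submitters' processing notes the authors summarised probe intensities with RMA, which returns log2 values, and per the series' design text they used GeneSpring GX 11.5. Each probe set's deposited log2 values sum to 0 over wildtype DMSO within 1e-06, so they are centred on that group, a step no label records, which leaves group differences as they were. RMA and the binary step of the numbers give the base as 2. On 2000 simulated probe sets the reading of levels from that step was right for 99.5%. No genome build of the authors is given in the sources used here.

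A gene was read by 1 probe set, the first by suffix (_at, _a_at, _s_at, _x_at) and identifier. Unless other probe sets are named, a gene with several is described from that 1 alone. Group means were fitted over all 8 arrays with limma 3.58.1 in R 4.3.3 (4 residual and 5.8 prior degrees of freedom), with p-values adjusted by Benjamini-Hochberg over 18193 genes in each of 7 comparisons. The fit was tested on simulated data. The number of arrays limits the precision. Intervals are 95% limma intervals, not adjusted. Genes shown on every array are those called, the 2 highest and the 2 lowest without overlap in each pairwise comparison, and the best known gene of each role, with Il17a and Mki67 as references. Pfkm, Ppp1r3c and second probe sets were added after their values were seen. The genes and lists were chosen with earlier results of these data known. Promoters came from RefSeq (GRCm38.p6). Alternatives were other probe set rules, fits, normalisations, a level filter, replicate blocks and leaving out each array.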

Additional observations from a re-analysis of the deposited data

How the results depend on the processing

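The digoxin and RORγt effects on the glycolysis and hypoxia genes were recomputed under 16 alternatives, 8 of which left out 1 array each. For RORγt deficiency in DMSO the count of these genes called was 0 when only the groups compared were fitted, 0 after quantile normalisation and 0 or 1 without 1 array. Over both treatments it was 2 with all probe sets averaged, 0 after quantile normalisation and 0 or 1 without 1 array. In the other 5 comparisons it was 0 under every alternative run. Quantile normalisation gives the centred wildtype DMSO arrays the same spread as the others by construction. The counts over all genes moved more. For RORγt deficiency in DMSO they were 95 with only the groups compared, 3 after quantile normalisation and 17 to 188 without 1 array, the lowest without wildtype DMSO replicate 2. For digoxin in wildtype cells they were 40 with probe sets averaged, 9 with only the groups compared, 35 with array weights, 4 after quantile normalisation and 6 to 23 without 1 array. For digoxin in deficient cells the count was 0 after quantile normalisation. For RORγt deficiency under digoxin it was 2 with probe sets averaged, 0 after quantile normalisation and 0 to 2 without 1 array. For the difference between the digoxin effects it was 1 with probe sets averaged, 1 with array weights, 1 after quantile normalisation and 0 or 1 without 1 array. Over both treatments it was 3 after quantile normalisation and 108 to 254 without 1 array, the lowest without RORγt-deficient digoxin replicate 2. For digoxin over both genotypes it was 3 after quantile normalisation and 5 to 12 without 1 array.

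The replicate number as a block left the Txnip calls in place (limma adjusted p = 0.0225 in DMSO and 0.0133 over both treatments) and gave 2 genes for RORγt deficiency under digoxin. Over genes, same-numbered arrays deviated together between the 3 groups outside wildtype DMSO (r from 0.32 to 0.45) and oppositely to wildtype DMSO (-0.24 to -0.14). The numbers as given were therefore not taken to pair the arrays across all groups. The main fit left this shared deviation in its spread, and its source was not tested. A block with the wildtype DMSO numbers crossed, chosen after seeing the data, called 414 genes for RORγt deficiency in DMSO, 60 for digoxin in wildtype cells, 27 for RORγt deficiency under digoxin, 2 for the difference, 631 over both treatments and 48 for digoxin over both genotypes.

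The median over the 38 genes lay between -0.034 and 0.045 for digoxin in wildtype cells and between -0.064 and 0.008 for the difference between the digoxin effects without 1 array. Among the genes named per comparison, the signs that turned belonged to differences that were not called. Txnip for digoxin in deficient cells was -0.0019 with arrays centred on their medians, -0.02 after quantile normalisation and -0.04 to 0.08 without 1 array. Without 1 array, Arrdc4 ran from -0.18 to 0.33 for digoxin in deficient cells, from -0.09 to 0.42 for RORγt deficiency under digoxin and from -0.44 to 0.07 for the difference. The cause of these shifts was not tested.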

Other observations

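The control probe sets of 18S ribosomal RNA, which belong to no gene of the list, differed between the arrays of a group far more than the control probe sets of Gapdh did. On the 3 of them replicate 2 stood between 1.41 and 1.91 in RORγt-deficient digoxin, RORγt-deficient DMSO and wildtype digoxin cells, while replicate 1 of these groups stood between -2.77 and 0.09. In wildtype DMSO cells replicate 1 stood between 0.69 and 0.77 and replicate 2 between -0.77 and -0.69. Wildtype DMSO thus ran opposite to the other groups, as in the correlations of replicate numbers above. The part of this pattern in the results was not tested. The control probe sets of Actb, which encodes β-actin, lay between -0.09 and 0.22 on all arrays.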
